A study of Rattus norvegicus with 19 samples.

Results

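The Ugt2b genes encode UDP-glucuronosyltransferases, and they were followed here across 4 dose groups of rat liver. Every probe set whose platform gene symbol begins with Ugt2b was taken, which gave 8 of 31042 tested probe sets. They stood for 7 of 14217 genes, namely Ugt2b1, Ugt2b10, Ugt2b15, Ugt2b34l1, Ugt2b35, Ugt2b7 and Ugt2b. Ugt2b alone had 2 probe sets, and the one with the higher mean over all arrays stands for it. All 7 genes were measured and no filter on low signals was applied to them.

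The samples were 19 liver RNA samples of Wistar Han rats (Crl:WI(Han)), each on 1 Affymetrix Rat230_2 array, a 3' array with probe sets for most known rat transcripts. Dams, obtained when 11 to 12 weeks old, received DE-71, a commercial flame retardant mixture of pentabromodiphenyl ethers, in corn oil by gavage, beginning on gestation day 6 and ending on postnatal day 4. The groups were corn oil vehicle (5 arrays) and DE-71 at 0.1 mg/kg (5 arrays), 15 mg/kg (4 arrays) and 50 mg/kg per day (5 arrays), with liver taken from the left lateral lobe on postnatal day 4. The labels give no other agent or genotype, and they do not say whether a liver came from a pup or a dam or whether arrays are separate animals, so p-values refer to the spread among the arrays, which may in part be technical.

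Glucuronosyltransferases sit in the membrane of the endoplasmic reticulum and join glucuronic acid from UDP-glucuronate to lipid-soluble molecules, which can then leave the cell through transporters into bile or blood. The 2B subfamily conjugates steroids, bile acids, fatty acids and many drugs, and the liver is its main site. Several members in rodent liver are known to be raised by compounds that activate the receptors CAR and PXR.

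The genes lie in 1 cluster on chromosome 14 of the rat assembly GRCr8, between position 20985449, where Ugt2b starts, and position 21524095, where Ugt2b34l1 ends. In that order come Ugt2b, Ugt2b15, Ugt2b35, Ugt2b7, Ugt2b1, Ugt2b10 and Ugt2b34l1. Ugt2b37 and Ugt2b7l1 also lie there but have no probe set of a single symbol, and are not analysed here. Between the members stand other genes too, among them the protein-coding LOC120096526 and Ppial4d and the pseudogenes Ugt2b-ps1 and Ugt2b17-ps1. RefSeq windows from 250 bases before to 50 bases after a transcript start were at hand for all 7 genes, 8 windows in all because Ugt2b34l1 has 2. 4 of them are printed, for the 3 genes whose responses are compared below and for Ugt2b7, a neighbour whose signal did not pass the test. Capitals mark a run of 8 bases, AAGTTATA, that the printed windows share upstream of the start. The window of Ugt2b10 belongs to a transcript that starts inside the annotated span of that gene.
Ugt2b15, chr14:21122616-21122915, plus strand: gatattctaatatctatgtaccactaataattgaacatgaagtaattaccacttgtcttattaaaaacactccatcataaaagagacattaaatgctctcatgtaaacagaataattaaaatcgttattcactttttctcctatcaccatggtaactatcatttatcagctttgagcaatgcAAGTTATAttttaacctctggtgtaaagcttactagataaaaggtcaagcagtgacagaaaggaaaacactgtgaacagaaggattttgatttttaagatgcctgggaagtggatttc
Ugt2b7, chr14:21251285-21251584, plus strand: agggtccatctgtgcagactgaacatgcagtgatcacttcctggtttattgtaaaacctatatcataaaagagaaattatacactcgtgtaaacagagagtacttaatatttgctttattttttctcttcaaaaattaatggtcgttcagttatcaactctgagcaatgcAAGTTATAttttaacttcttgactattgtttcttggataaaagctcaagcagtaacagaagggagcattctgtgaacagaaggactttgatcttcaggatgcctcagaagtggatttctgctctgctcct
Ugt2b1, chr14:21378632-21378931, plus strand: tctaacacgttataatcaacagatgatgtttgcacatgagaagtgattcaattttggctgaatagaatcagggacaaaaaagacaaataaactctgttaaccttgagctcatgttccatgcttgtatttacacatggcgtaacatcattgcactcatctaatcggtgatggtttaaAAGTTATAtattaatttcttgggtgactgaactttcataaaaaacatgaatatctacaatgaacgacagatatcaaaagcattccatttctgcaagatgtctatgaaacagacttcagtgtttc
Ugt2b10, chr14:21462591-21462890, plus strand: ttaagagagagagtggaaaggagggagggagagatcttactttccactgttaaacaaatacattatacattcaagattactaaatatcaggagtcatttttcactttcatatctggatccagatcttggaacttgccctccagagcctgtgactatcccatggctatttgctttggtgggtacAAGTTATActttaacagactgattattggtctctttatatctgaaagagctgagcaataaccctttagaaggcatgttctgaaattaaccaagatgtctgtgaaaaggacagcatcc

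The run lay on the plus strand in 6 of the 8 windows, all but the 2 of Ugt2b34l1, against 0.592% of 33469 RefSeq windows searched on both strands. Its first base stood 68 bases before the start in Ugt2b15, 80 in Ugt2b7, 74 in Ugt2b1 and 67 in Ugt2b10, and 64 and 77 in Ugt2b and Ugt2b35. It overlaps a longer pattern, GTTA and TAAC with 5 bases between them, the outer letters of the palindrome that the liver factor HNF1 binds, which was found in 5 windows (0.248% of all windows). Ugt2b1 has the run but not the pattern. Both were picked after the windows had been read, and the genes are paralogs whose windows share bases, from 46.9% identical between Ugt2b and a window of Ugt2b34l1 to 70.9% between Ugt2b35 and Ugt2b7 (54.4% for Ugt2b1 and Ugt2b10, 52.3% for Ugt2b15 and Ugt2b10). The run was in windows of genes that rose and in those of Ugt2b7 and Ugt2b, which did not pass. Of 8 further patterns, AGGTCA, the nuclear receptor half-site, was in 1 window (16.2% of all windows), GTTAAT in 1 (7.45%), GCGTG, the core of the AhR element, in the 2 of Ugt2b34l1 (29.7%), TATAAA in 2 (14.2%) and TTGCNNAA in 4 (10.6%). TGACNNNGC, the core of the NRF2 element, was in 0 (12.1%), as were direct repeats of the receptor half-site AGGTCA or TGAACT with a spacer of 4 bases (2 and 4 windows of all). These are matches of letters within short windows only.

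Signals are log2 values after robust multi-array average (RMA) processing, and levels of different probe sets are not comparable. Hepatocyte transcripts averaged between 14.06 and 14.27 on every array, near the top of the signal range, where differences are compressed. Equal hepatocyte content cannot be read from them. The sex label reads female for all 19 samples, while the Y-linked Eif2s3y read 9.55 to 10.07 and Xist 3.88 to 4.29 on every array. These are readings of male tissue, which go against the label and against dams as the source of the livers. Afp, listed as a marker of fetal hepatocytes, read 14.47 to 14.70 on every array. The array labelled 0.1 mg/kg replicate 1 stood apart in its group, since Cyp1a1, a target of the dioxin receptor, read 14.06 there against 7.19 to 8.42 on the other 4 arrays, next to 14.11 to 14.30 at 50 mg/kg and 7.10 to 8.36 in vehicle. Whether its label is right was not settled, so means at 0.1 mg/kg that include it may mix doses. Results that rest on that library are given with and without it where both were computed. Array numbers in the descriptions run from 1 to 20, and 4 of the 5 arrays at 50 mg/kg but 1 of 5 in vehicle are among numbers 1 to 8, called early here, with the rest called late. Fits that add a term for early against late arrays are cited below as fits with array order. Markers of other cells varied more than those of hepatocytes. The 6 measured skeletal muscle markers averaged 11.60 and 9.48 in vehicle replicates 1 and 5, and 10.01 and 9.47 in 50 mg/kg replicates 2 and 3. They averaged 6.74 to 7.92 in 15 mg/kg replicates 2, 4 and 5, and 4.40 to 5.32 on the other arrays, among them all at 0.1 mg/kg. The 5 measured erythroid markers averaged 8.48 to 10.74 in vehicle and 8.55 to 10.80 at 50 mg/kg. The 3 measured neutrophil markers averaged 11.30 to 12.05 at 50 mg/kg against 11.76 to 12.63 in vehicle, and 1 of them passed, Camp, which was named after its values were seen and encodes an antimicrobial peptide (-0.94, adjusted p = 0.0457). It passed in 6 of 22 alternative settings and stood at -0.74 with array order in the model (adjusted p = 0.245). The 7 exocrine pancreas markers averaged 5.55 to 5.76 at 50 mg/kg against 5.62 to 8.58 in vehicle, and 1 of 7 had a difference above 0 and 0 passed. The part of these cells in the Ugt2b differences was not tested. Probe sets for genes this similar may also bind transcripts of their neighbours, which was not tested.

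At 50 mg/kg 5 of the 7 genes rose against vehicle, 0 fell and 2 did not pass (limma, Benjamini-Hochberg adjusted p under 0.05 over all probe sets). Ugt2b10 rose 3.88-fold, Ugt2b34l1 2.47-fold, Ugt2b15 and Ugt2b1 2.06-fold and 2.05-fold, and Ugt2b35 1.41-fold. Of all probe sets 1.22% passed upward and 0.383% downward in that comparison, and 3.21% stood higher at 50 mg/kg on every array. The median log2 difference was 1.04 over the 7 genes and 0.01 over all genes. In bulk liver, more cells of a type and more RNA per cell cannot be told apart.

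**Figure D1:**
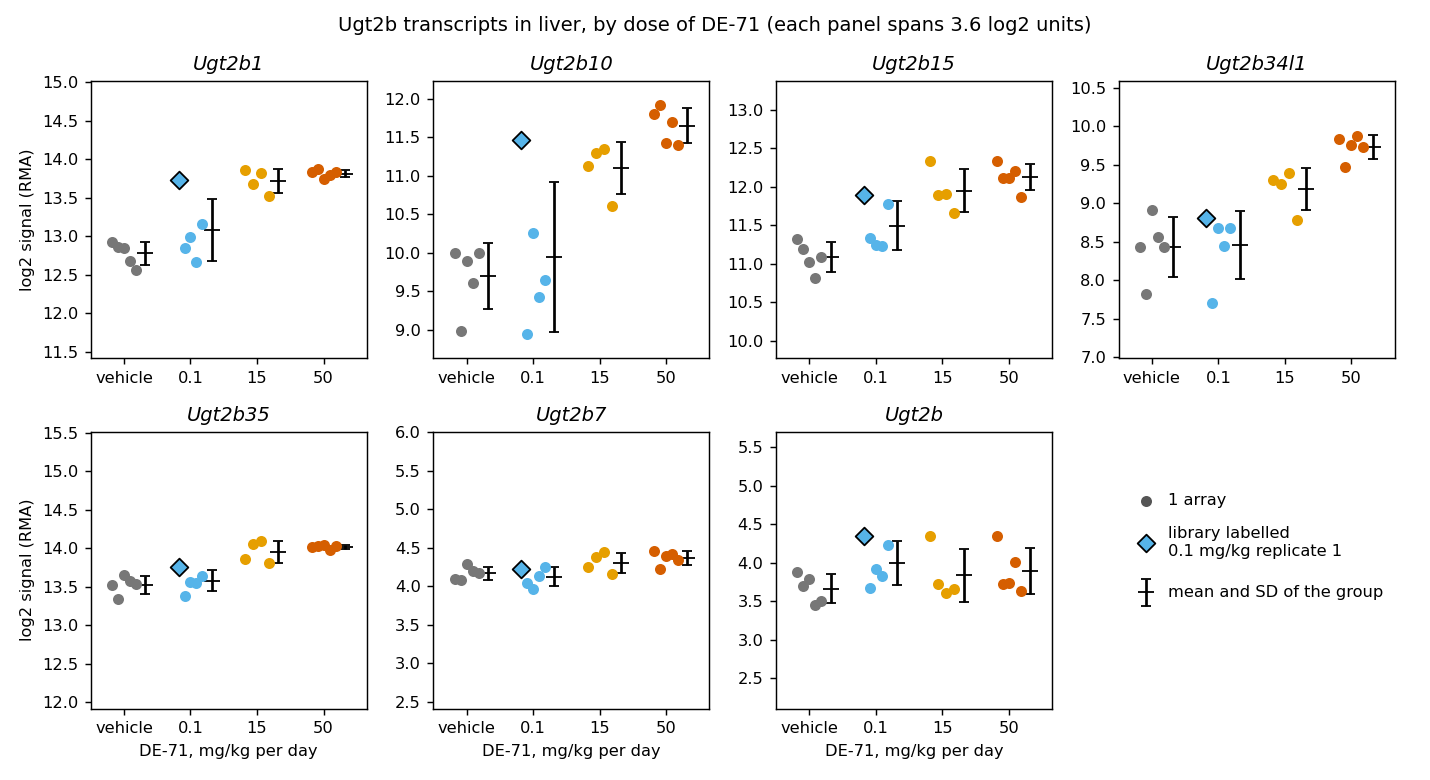
Log2 signal of the 7 Ugt2b genes (y axis) against the DE-71 dose in mg/kg per day (x axis). Points are arrays, the diamond is the library labelled 0.1 mg/kg replicate 1, and bars are the mean and SD of a group. In 5 panels all 5 arrays at 50 mg/kg lie above all vehicle arrays, which is not so for Ugt2b7 and Ugt2b.

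Ugt2b10 had the largest difference. It read 9.99, 8.98, 9.89, 9.61 and 10.00 in vehicle, 11.47, 8.94, 10.26, 9.43 and 9.64 at 0.1 mg/kg, 11.13, 11.30, 11.35 and 10.61 at 15 mg/kg, and 11.80, 11.92, 11.43, 11.70 and 11.40 at 50 mg/kg. The arrays at both upper doses lay above every vehicle array, and those at 50 mg/kg lay just above those at 15 mg/kg without overlap, as 1.84% of all probe sets did upward. At 0.1 mg/kg replicate 1 lay among the 50 mg/kg arrays and the other 4 overlapped vehicle. The mean was 11.65 ± 0.23 at 50 mg/kg against 9.69 ± 0.43 in vehicle (SD, n = 5 each), a log2 difference of 1.96 (SE 0.341, adjusted p = 0.00775). With array order in the model it was 1.56 and did not pass (adjusted p = 0.0752). The difference was 1.72 within early arrays (4 against 1) and 1.78 within late arrays (1 against 4), and with array order but without 0.1 mg/kg replicate 1 it was 1.81 and passed (adjusted p = 0.00611). The lowest Ugt2b10 values, 8.94 in 0.1 mg/kg replicate 2 and 8.98 in vehicle replicate 2, came from the arrays where 6 measured kidney markers averaged 9.62 and 9.60. That average was 6.97 in 50 mg/kg replicate 3 and 4.29 to 4.67 on the other 16 arrays. Both replicates 2 also held exocrine pancreas markers (8.54 at 0.1 mg/kg and 8.58 in vehicle) and bile duct markers (9.04 at 0.1 mg/kg and 9.02 in vehicle). Their deviations from group means correlated at 0.889 over all probe sets, the highest of 27 same-numbered pairs of arrays. Whether these 2 arrays are separate livers was not settled, though each counts as 1 array of its group. The part of the kidney, pancreas and bile duct markers in the level was not tested. Without vehicle replicate 2 the difference at 50 mg/kg was 1.78 and passed (adjusted p = 0.0125).

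Ugt2b34l1, the last gene of the row and the neighbour of Ugt2b10, had its highest signals at the top dose. Its signal was 8.43, 7.82, 8.91, 8.56 and 8.44 in vehicle, 8.81, 7.71, 8.68, 8.45 and 8.68 at 0.1 mg/kg, 9.31, 9.25, 9.39 and 8.79 at 15 mg/kg, and 9.84, 9.47, 9.76, 9.87 and 9.73 at 50 mg/kg. The 50 mg/kg arrays were above all others, 15 mg/kg replicate 5 fell below the highest vehicle array, and the 2 lowest values were again in the replicates 2 with kidney, pancreas and bile duct transcripts. It averaged 9.73 ± 0.16 at 50 mg/kg against 8.43 ± 0.40 in vehicle (SD, n = 5 each), a difference of 1.30 (SE 0.201, adjusted p = 0.00351), and 1.21 with array order (adjusted p = 0.0416).

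Ugt2b1, which in rats conjugates steroids and phenols, rose at 50 mg/kg. Its arrays read 12.93, 12.86, 12.85, 12.68 and 12.56 in vehicle, 13.73, 12.85, 12.99, 12.67 and 13.16 at 0.1 mg/kg, 13.86, 13.68, 13.82 and 13.52 at 15 mg/kg, and 13.83, 13.87, 13.74, 13.79 and 13.83 at 50 mg/kg. All 9 arrays of the upper doses were above all vehicle arrays, and the groups at 15 and 50 mg/kg overlapped. The mean was 13.81 ± 0.05 at 50 mg/kg against 12.77 ± 0.15 in vehicle (SD, n = 5 each), a difference of 1.04 (SE 0.142, adjusted p = 0.00131), and 0.86 with array order (adjusted p = 0.016). These signals lie near the top of the range of 2.40 to 15.06 on the arrays, where a fold can read too low.

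Ugt2b15, for which RefSeq lists the older name Ugt2b3, an enzyme known in rats for conjugating testosterone, moved by the same amount. Its values were 11.32, 11.19, 11.03, 10.81 and 11.09 in vehicle, 11.89, 11.34, 11.25, 11.23 and 11.78 at 0.1 mg/kg, 12.33, 11.89, 11.91 and 11.66 at 15 mg/kg, and 12.34, 12.11, 12.11, 12.21 and 11.87 at 50 mg/kg. Both upper doses were again clear of vehicle and overlapped each other, and at 0.1 mg/kg replicates 1, 2 and 5 stood above every vehicle array. It averaged 12.13 ± 0.17 at 50 mg/kg against 11.09 ± 0.19 in vehicle (SD, n = 5 each), a difference of 1.04 (SE 0.147, adjusted p = 0.00173), and 0.80 with array order (adjusted p = 0.00977).

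Ugt2b35 showed a smaller and tight shift. It read 13.52, 13.34, 13.65, 13.57 and 13.54 in vehicle, 13.76, 13.38, 13.56, 13.55 and 13.64 at 0.1 mg/kg, 13.86, 14.06, 14.09 and 13.81 at 15 mg/kg, and 14.02, 14.03, 14.04, 13.98 and 14.03 at 50 mg/kg. The arrays at 15 and 50 mg/kg were all above vehicle, with 50 mg/kg lying inside the range of 15 mg/kg. The mean was 14.02 ± 0.021 at 50 mg/kg against 13.52 ± 0.11 in vehicle (SD, n = 5 each), a difference of 0.50 (SE 0.0767, adjusted p = 0.00351), again near the top of the signal range. With array order the difference was 0.48 (adjusted p = 0.0364).

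Ugt2b7 and Ugt2b lay at the low end of the signal range, where differences are compressed too. Ugt2b7 read 4.10, 4.08, 4.29, 4.20 and 4.18 in vehicle, 4.23, 4.05, 3.96, 4.14 and 4.25 at 0.1 mg/kg, 4.25, 4.38, 4.45 and 4.16 at 15 mg/kg, and 4.46, 4.22, 4.40, 4.42 and 4.34 at 50 mg/kg. At 50 mg/kg all arrays but replicate 2 were above vehicle, and the difference of 0.20 (SE 0.074) did not pass (adjusted p = 0.198). Ugt2b, with the older name Ugt2b2, which in rats is known to conjugate androsterone, read 3.88, 3.70, 3.78, 3.45 and 3.50 in vehicle, 4.35, 3.67, 3.91, 3.83 and 4.23 at 0.1 mg/kg, 4.35, 3.72, 3.60 and 3.66 at 15 mg/kg, and 4.35, 3.72, 3.73, 4.01 and 3.63 at 50 mg/kg. Its groups overlapped at every dose, and the difference at 50 mg/kg was 0.23 (SE 0.167, adjusted p = 0.543). Its other probe set, at 2.70 to 3.16 over all arrays, gave 0.15 (adjusted p = 0.437).

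At 15 mg/kg the same genes stood higher but 0 of 7 passed, as did 0% of all probe sets (3083 had an unadjusted p under 0.05). The differences from vehicle were 1.41 for Ugt2b10 (SE 0.361, adjusted p = 0.421), 0.95 for Ugt2b1 (SE 0.151, adjusted p = 0.0724), 0.86 for Ugt2b15 (SE 0.155, adjusted p = 0.165), 0.75 for Ugt2b34l1 (adjusted p = 0.427) and 0.43 for Ugt2b35 (adjusted p = 0.166). On all 4 arrays Ugt2b10, Ugt2b1, Ugt2b15 and Ugt2b35 were above every vehicle array, as were 2.21% of all probe sets. Replicate 5, the lowest 15 mg/kg array for all 5 genes, held markers of intestine (8.89, against 5.42 to 6.37 on the other 18 arrays), exocrine pancreas (8.08) and bile duct (8.73). Without it the differences were 1.57 for Ugt2b10, 1.01 for Ugt2b1, 0.95 for Ugt2b15, 0.89 for Ugt2b34l1 and 0.48 for Ugt2b35, and 0 passed (adjusted p from 0.0543 to 0.247). The call at this dose depended on the setting of the fit, and among other things on a single array of another group. Without 0.1 mg/kg replicate 1, which widens the shared estimate of the spread, 11 probe sets passed (0.0354%, all higher), and Ugt2b1 (adjusted p = 0.000297) and Ugt2b15 (adjusted p = 0.044) were 2 of them, at the same differences. Ugt2b10 and Ugt2b35 then had an adjusted p of 0.0532 each. With array order in the model and all 19 arrays kept, Ugt2b1 (0.93, adjusted p = 0.017) and Ugt2b15 (0.84, adjusted p = 0.0121) passed as well.

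At 0.1 mg/kg 0 of 7 genes passed, and 0% of all probe sets did (763 had an unadjusted p under 0.05). Differences from vehicle were 0.41 for Ugt2b15, 0.34 for Ugt2b, 0.31 for Ugt2b1, 0.26 for Ugt2b10 and between -0.04 and 0.06 for the other 3 genes. Without replicate 1 they were 0.31, 0.25, 0.15 and -0.13 in the same order of genes, and -0.07 to 0.01 for the other 3, and 0 passed. That replicate held the highest value of its group for 6 of the 7 genes, all but Ugt2b7.

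**Figure D2:**
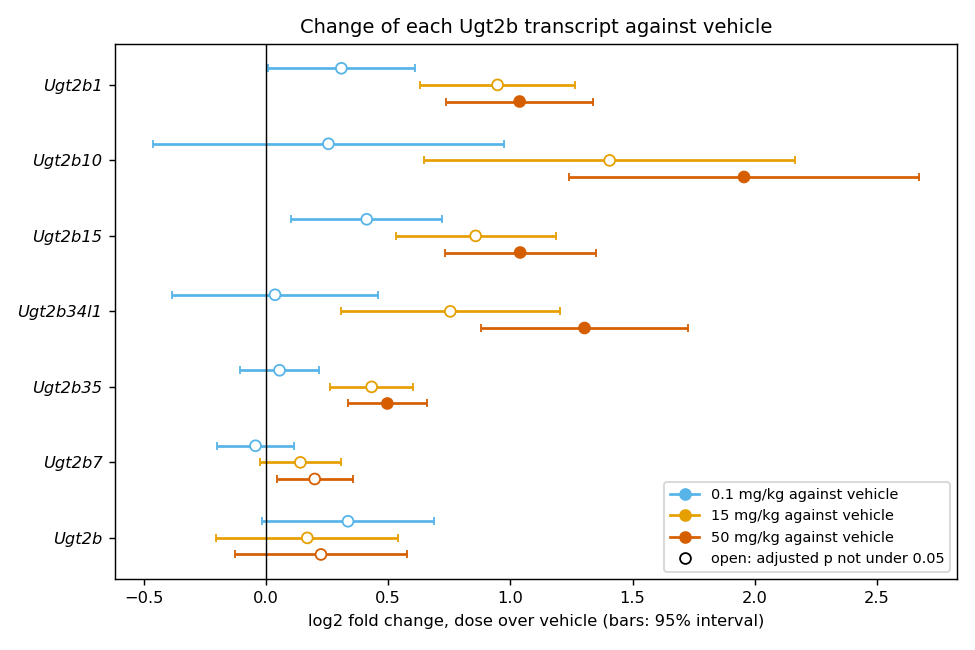
Log2 fold change against vehicle (x axis) of the 7 genes at 0.1, 15 and 50 mg/kg, with 95% intervals from limma; open points did not pass. For Ugt2b10 the value is 0.26, 1.41 and 1.96 at the 3 doses, and the filled points are the 5 genes at 50 mg/kg.

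The step between the upper doses differed in size among the genes and did not pass for any of the 7 (0 probe sets in all, 2417 with an unadjusted p under 0.05). The difference of 50 from 15 mg/kg was 0.55 for Ugt2b10 (95% interval -0.21 to 1.31, adjusted p = 0.772), 0.55 for Ugt2b34l1 (0.10 to 1.00, adjusted p = 0.566), 0.18 for Ugt2b15 (-0.14 to 0.51), 0.09 for Ugt2b1 (-0.23 to 0.41) and 0.06 for Ugt2b35 (-0.11 to 0.24). Ugt2b10 and Ugt2b34l1 were the genes whose arrays did not overlap between these doses. In order of means, the groups ran vehicle, 0.1, 15 and 50 mg/kg for all 5 genes that rose, with vehicle and 0.1 mg/kg overlapping in each. Without 0.1 mg/kg replicate 1 the mean at 0.1 mg/kg was below vehicle for Ugt2b10 (9.57 at 0.1 mg/kg against 9.69 in vehicle) and Ugt2b34l1 (8.38 at 0.1 mg/kg against 8.43 in vehicle), and the order held for the other 3 genes.

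**Figure D3:**
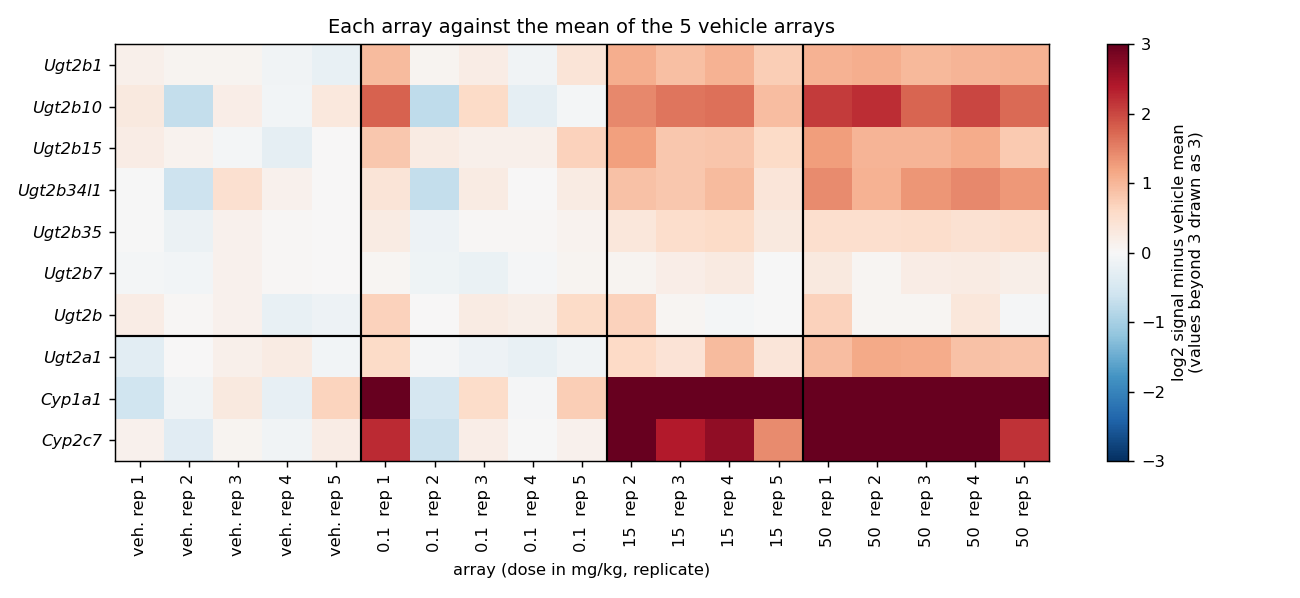
Log2 signal of each array minus the mean of the 5 vehicle arrays (colour) for the 7 Ugt2b genes and for Ugt2a1, Cyp1a1 and Cyp2c7, with arrays in columns by dose. In the column of 0.1 mg/kg replicate 1, Ugt2b1, Ugt2b10, Ugt2b15, Ugt2a1, Cyp1a1 and Cyp2c7 lie above vehicle, within ranges at 15 or 50 mg/kg. There Ugt2b34l1 and Ugt2b7 lie within the vehicle range, and Ugt2b35 lies between vehicle and 15 mg/kg. The replicates 2 of vehicle and 0.1 mg/kg are low for Ugt2b10 and Ugt2b34l1.

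Whether the members responded by different amounts was tested on the difference between 2 log2 values of the same array, for the pairs of Ugt2b10, Ugt2b15 and Ugt2b1 at each dose (9 exact two-sided permutation tests over arrays, Benjamini-Hochberg adjusted). Ugt2b10 minus Ugt2b1 shifted by 0.92 at 50 mg/kg, with means of -2.16 ± 0.20 there and -3.08 ± 0.49 in vehicle (SD, n = 5 each; exact p = 0.00794, the smallest that 5 against 5 can give, adjusted p = 0.0357). Ugt2b10 minus Ugt2b15 also shifted by 0.92 (exact p = 0.00794, adjusted p = 0.0357). All 5 arrays at 50 mg/kg were above all 5 vehicle arrays in both. Ugt2b15 minus Ugt2b1 moved by 0.00 (exact permutation adjusted p = 0.992), with -1.68 ± 0.19 at 50 mg/kg and -1.69 ± 0.16 in vehicle. Ugt2b10 thus had the larger log2 response in this test. However, Ugt2b1 lies nearer the top of the signal range, and the part of compression there was not tested. The test held no term for array order. Without 1 array the shift of Ugt2b10 minus Ugt2b1 was 0.72 to 1.05 and did not pass. Its exact permutation adjusted p was then 0.0714, the smallest possible with 1 array fewer. At 15 mg/kg the shifts were 0.46, 0.55 and -0.09 for these pairs (exact permutation adjusted p = 0.214, 0.19 and 0.667), and at 0.1 mg/kg they were -0.05, -0.16 and 0.10 (exact permutation adjusted p from 0.667 to 0.992).

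**Figure D4:**
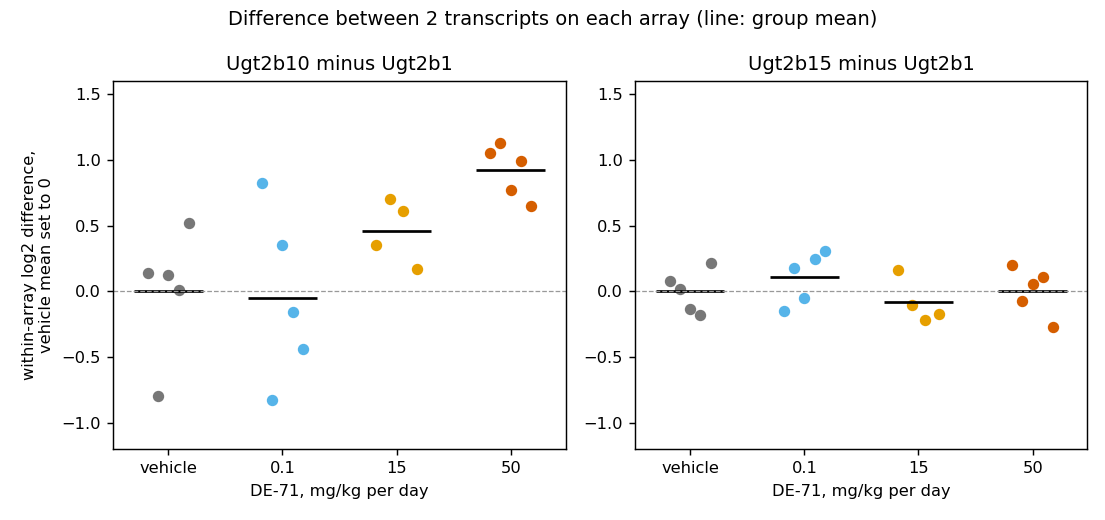
Within-array log2 difference of Ugt2b10 minus Ugt2b1 (left) and Ugt2b15 minus Ugt2b1 (right), with the vehicle mean set to 0, by DE-71 dose in mg/kg per day; points are arrays and lines group means. The left panel reaches 0.92 at 50 mg/kg, and the right one stays at 0.00.

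Across the 19 arrays the 5 genes that rose went together, with Pearson r between 0.776 (Ugt2b34l1 and Ugt2b15) and 0.937 (Ugt2b35 and Ugt2b34l1). Without the library of the lowest dose group that stood apart, r ran from 0.789 (Ugt2b34l1 and Ugt2b15) to 0.951 (Ugt2b35 and Ugt2b10). The arrays share dose groups, so r was also taken on deviations from group means over all 19 arrays. It was 0.825 for Ugt2b35 and Ugt2b34l1, 0.752 for Ugt2b35 and Ugt2b10, 0.717 for Ugt2b1 and Ugt2b15 and 0.206 for Ugt2b35 and Ugt2b15. The library that stood apart and the arrays with kidney, pancreas, bile duct or intestine transcripts were kept there. Deviations were not correlated without these arrays, so their part in those r values was not tested. Among genes at or above the median level, those most like Ugt2b1 over the 19 arrays were Cyp3a23-3a1 (r = 0.968), Cyp1a1 (0.963), Mmgt1, Cyp1a2 and Ugt2b15 (0.934). Ugt2b10 was most like Tex2 (0.950), Cyp2a3, Cyp2c6v1, Cyp2c7 and Mmgt1 (0.947), and Ugt2b15 most like Ugt2b1, Cyp2a3, Cyp2c7, Nqo1 and Ddc (0.910). Genes of cytochromes P450 were among the 5 of each of these 3, and Cyp2c6v1 was the gene most like Ugt2b35 (r = 0.943). The 5 of Ugt2b34l1 held no such gene. Ugt2b34l1 and Ugt2b35 shared Serp1, a membrane protein of the endoplasmic reticulum (r = 0.945 and 0.932), among their 5. These values are descriptions of arrays that share their doses and one normalization.

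Of 14 other listed Ugt genes, not all of them glucuronosyltransferases, only 2 had a probe set with 1 symbol. Ugt2a1, first known from olfactory tissue, read 6.60 ± 0.13 at 50 mg/kg against 5.62 ± 0.21 in vehicle (SD, n = 5 each) and rose 1.98-fold (0.98, SE 0.144, adjusted p = 0.00249), while Ugt8, which makes galactolipids, stood at -0.13 (adjusted p = 0.713). Another 2 probe sets are annotated to several Ugt genes at once, with Ugt1a symbols and none beginning with Ugt2b, and stand for no gene by name. Both were also higher at 50 mg/kg (0.51, adjusted p = 0.00684, and 0.66, adjusted p = 0.0213).

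The supply of the sugar donor was represented by 6 measured genes. Of these 1 rose, 0 fell and 5 did not pass at 50 mg/kg (1.22% of all probe sets rose). Ugdh, which oxidises UDP-glucose to UDP-glucuronate, rose 1.62-fold (0.70, SE 0.119, adjusted p = 0.00699), though with array order it did not pass (0.68, adjusted p = 0.06). Pgm2 stood at 0.36 (adjusted p = 0.0983) and Pgm1, which feeds glucose into the path, at 0.16 (adjusted p = 0.492). Of 7 genes that split glucuronides or use up glucuronate 0 passed. Among them the lysosomal glucuronidase Gusb stood at -0.20 (adjusted p = 0.345) and Gulo, the last enzyme of vitamin C synthesis, at -0.29 (adjusted p = 0.356).

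Of 8 transporters of conjugates 2 rose, 0 fell and 6 did not pass at 50 mg/kg (1.22% of all probe sets rose). Abcc3, which pumps glucuronides back into blood, rose 3.76-fold, with a mean of 10.49 at 50 mg/kg against 8.58 in vehicle (1.91, SE 0.299, adjusted p = 0.00369). Abcc2, the pump into bile, rose 2.34-fold, with 10.20 at 50 mg/kg against 8.97 in vehicle (1.23, SE 0.167, adjusted p = 0.00123). The uptake carrier Slco2b1 (0.41, adjusted p = 0.112) and the exporter Abcg2 (0.41, adjusted p = 0.428) did not pass. The median of the 8 transporters was 0.31 against 0.01 over all genes.

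Among 17 regulators linked to Ugt2b genes in liver 1 rose, 0 fell and 16 did not pass (1.22% of all probe sets rose). Nfe2l2, which encodes NRF2, rose 1.84-fold (0.88, SE 0.154, adjusted p = 0.00817) but with array order stood at 0.71, outside the threshold (adjusted p = 0.0791). The dioxin receptor Ahr stood at 1.15 (SE 0.368, adjusted p = 0.126), and Pou2f1 (-0.77, adjusted p = 0.353) and Onecut1 (-0.64, adjusted p = 0.34) had the lowest values. The genes of PXR and CAR, named here for their known role after their values were seen, stood at 0.24 (Nr1i2, adjusted p = 0.512) and -0.18 (Nr1i3, adjusted p = 0.671). These are transcript levels of the regulators only.

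Of 12 genes that reduce or inactivate steroids, the substrates of several 2B enzymes, 1 rose, 0 fell and 11 did not pass (1.22% of all probe sets rose). Akr1c14, which reduces dihydrotestosterone, rose 1.81-fold (0.86, SE 0.164, adjusted p = 0.0132) but with array order stood at 0.81, outside the threshold (adjusted p = 0.0942). The estrogen sulfotransferase Sult1e1 stood at 0.68 (adjusted p = 0.0842), Hsd17b2 at -0.47 (adjusted p = 0.125) and Hsd11b2 at -0.39 (adjusted p = 0.814). The median of the list was -0.01. At 15 and at 0.1 mg/kg 0 genes of these 6 lists passed, as 0 probe sets did in all.

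**Figure D5:**
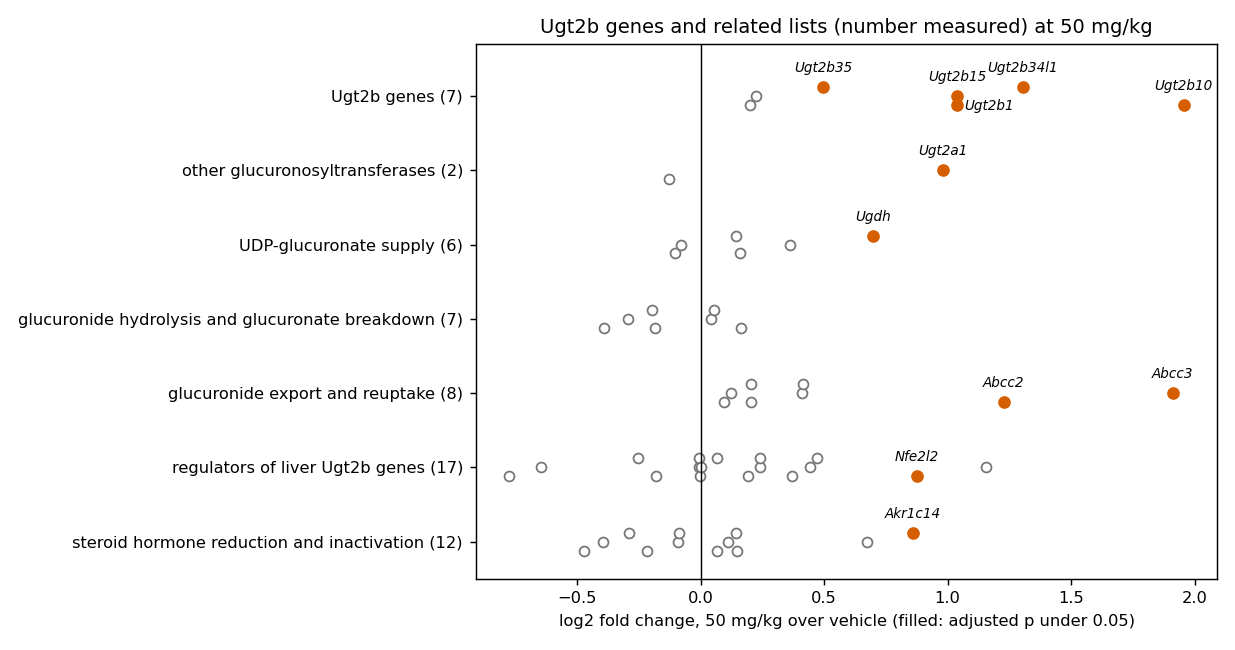
Log2 fold change at 50 mg/kg over vehicle (x axis) of the Ugt2b genes and of 6 lists around glucuronidation, with the number of measured genes in brackets; filled points passed and are named. The filled points outside the Ugt2b genes are Ugt2a1, Ugdh, Abcc2, Abcc3, Nfe2l2 and Akr1c14.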

How the data were processed

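Liver RNA of 19 samples was hybridised to Rat230_2 arrays. The deposited values are log2 signals, 1 per probe set and array, and the submitters' processing notes name RMA, which corrects background, makes the arrays' distributions equal and summarises probes. The sources used here do not give a version of it. RMA compresses differences at both ends of the signal range. The number of arrays limits the precision.

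57 control probe sets were left out. The platform annotation gave 20826 of the 31042 others 1 symbol, 436 several and 9780 none, and 20758 took a RefSeq symbol by gene ID. For a gene with several probe sets the one with the highest mean over all arrays was taken. The submitters compared vehicle with each dose; here limma 3.58.1 in R 4.3.3 fitted 1 mean per dose group over all 19 arrays, with two-sided moderated tests, Benjamini-Hochberg adjustment over all probe sets and a threshold of 0.05. The comparison of 50 with 15 mg/kg was added. Members were compared by exact permutation (scipy 1.17.1). The fit was tested on simulated data.

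The Ugt2b genes, the 6 lists and the markers were chosen with earlier results of these data known. Named besides the Ugt2b genes were listed genes that passed at 50 mg/kg and others by size of change, and 5 most alike genes per member. Early arrays have numbers up to 8. Results were recomputed with dim probe sets left out (median-level filter), other variance priors or an ordinary t, the compared groups alone, replicate number or array order as a block, cyclic loess, the mean of a gene's probe sets and each array left out in turn. Leaving out 0.1 mg/kg replicate 1, or 3 libraries (0.1 mg/kg replicates 1 and 2 and vehicle replicate 2), was chosen after seeing the data. Sequences are from RefSeq (GRCr8).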

Additional observations from a re-analysis of the deposited data

Results flagged for a closer look

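Of 44 groups of 4 or 5 arrays checked for 11 probe sets, 5 held an array far from the rest, where chance gives about 1 group in 20. 3 of the 5 were the library labelled 0.1 mg/kg replicate 1. Its Cyp1a1 signal was 14.06 against 7.19 to 8.42 on the other 4 arrays, its Cyp2c7 signal 7.06 against 4.17 to 5.00, and its Ugt2a1 signal 6.19 against 5.41 to 5.59. Ugt2b read 4.35 in 15 mg/kg replicate 2 against 3.60 to 3.72 on the other 3 arrays. Ugt2b35 read 13.98 in 50 mg/kg replicate 4, the lowest of values that otherwise span 14.02 to 14.04, so that the gap is small in size.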

How the results depend on the processing

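At 50 mg/kg Ugt2b1, Ugt2b15, Ugt2b34l1 and Ugt2b35 passed in all 22 alternatives, and Ugt2b10 in 21, failing only with array order, early or late, as a block (1.56, adjusted p = 0.0752). Leaving out 1 array gave 0.98 to 1.08 for Ugt2b1, 1.78 to 2.03 for Ugt2b10 and 0.97 to 1.10 for Ugt2b15. The number of probe sets past the threshold at 50 mg/kg, 499, was 57 with that block, 138 with it and without 0.1 mg/kg replicate 1, and 216 with it and without 3 libraries. It was 178 to 593 without 1 array, lowest without 50 mg/kg replicate 1, and also moved by over 1.5 times without 50 mg/kg replicates 2, 3 or 4 or vehicle replicates 1, 2, 4 or 5. At 15 mg/kg Ugt2b1 passed in 7 of 21 alternatives: 0.95 with the filter at the median, the mean of probe sets or 18 arrays, 0.97 with 16 arrays with or without the block, 0.93 with the block, and 0.94 with the block and 18 arrays. Ugt2b15 passed in 4, at 0.86 with 18 arrays, 0.84 with the block with 19 or 18 arrays, and 0.88 with the block and 16 arrays, and Ugt2b10 in 2, at 1.23 with 16 arrays with or without the block. Probe sets that passed at 15 mg/kg were 4 with the filter, 2 with the compared groups alone, 7, 12 and 14 with the block (19, 18 and 16 arrays), 11 with 18 arrays, 10 with 16 arrays, and 0 without any 1 array of the 2 groups.

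Ugdh at 50 mg/kg also did not pass with the block and 18 or 16 arrays (adjusted p = 0.0629 and 0.0502). Signs turned for values near 0 that did not pass. With the block Ugt2b at 50 mg/kg was -0.032 (19 arrays), -0.030 (18 arrays) and -0.0073 (16 arrays). At 0.1 mg/kg Ugt2b10 was -0.093 with 16 arrays, and with the block -0.050 (16 arrays) and -0.076 (18 arrays), Ugt2b34l1 was -0.038 with the block (18 arrays), and Ugt2b35 was -0.0017 with the block (16 arrays). For 50 against 15 mg/kg the block gave -0.071 for Ugt2b1, -0.038, -0.032 and -0.022 for Ugt2b15 (19, 16 and 18 arrays) and -0.18 for Ugt2b in all 3. Without 1 array the range was -0.0029 to 0.25 for Ugt2b at 15 mg/kg, -0.13 to 0.51 for Ugt2b10 and -0.12 to 0.23 for Ugt2b34l1 at 0.1 mg/kg, and -0.060 to 0.23 for Ugt2b between 50 and 15 mg/kg. The shift of Ugt2b10 minus Ugt2b1 at 50 mg/kg was 0.72 to 1.05, and that of Ugt2b10 minus Ugt2b15 0.71 to 0.99, without 1 array; the adjusted p was 0.0714 each time, the smallest that 4 against 5 arrays allow here. Ugt2b15 minus Ugt2b1 was -0.048 to 0.072 at 50 mg/kg, and at 0.1 mg/kg Ugt2b10 minus Ugt2b1 was -0.27 to 0.14 and minus Ugt2b15 -0.44 to 0.057. Replicate numbers were not treated as pairs in the main fits. Over 27 same-numbered pairs the correlation of deviations was -0.53 to 0.89, with 11 over 0.1, which does not settle whether they pair some groups. For 0.1 mg/kg with vehicle, replicates 2 to 5 were over 0.1 (0.889, 0.320, 0.359 and 0.261) and replicate 1 was at 0.048, so these groups deviate together in 4 of 5 numbers, as a hint from the data. The replicate block gave 511 probe sets at 50 mg/kg and changed no call of a Ugt2b gene (Ugt2b between 50 and 15 mg/kg turned to -0.030). The causes of these changes were not tested, except that fewer arrays set the smallest p. At 50 mg/kg against vehicle, early and late arrays each hold only 1 array of one of the 2 groups, so array order and dose can be separated only in part.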
